A study of Mus musculus with 6 samples.

Results

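Col13a1+ fibroblasts, a fibroblast population of the alveolar wall, were described across the 3 ages and both oxygen levels of a neonatal mouse lung study. They were taken as the cells of the single stromal cluster to which the authors' deposited annotation gives this name, and they comprised 11521 of the 61839 cells in the table and of its 21985 stromal cells. Newborn C57BL/6 mice breathed room air (21% O2, normoxia) or 85% O2 (hyperoxia) from birth, nursing dams were exchanged between the chambers every 48 h, and lungs of both sexes were taken at postnatal days 3, 7 and 14 (P3, P7 and P14). The study reports that the sexes were unequally represented at P3 and P7 and equally at P14. Sex did not enter the tests made here. Hyperoxia of this kind is a model of bronchopulmonary dysplasia, the chronic lung disease of preterm infants, and its P14 mice had been exposed for 14 days. Each of the 6 groups held 6 mice, whose dissociated cells carried a MULTI-seq lipid-anchored barcode and were pooled, so that at each age a pool brought together 3 mice from room air and 3 from hyperoxia. All 36 mice were of that strain, and the labels name no transgene. Between 12 and 639 Col13a1+ fibroblasts were found per mouse, the lowest number in hyperoxic P7 mouse 5, and these cells carried between 70016 and 3862160 UMIs (unique molecular identifiers, each standing for a captured RNA molecule) per mouse.

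Alveoli form after birth in mice, when the walls of the terminal air spaces are subdivided by septa that rest on fibroblasts, elastin and a capillary bed. Fibroblasts marked by Col13a1 lie next to the alveolar epithelium and include lipid-storing cells, and they are known as a source of growth factors such as Fgf10 and of the basement membrane protein nephronectin. Neighbouring mesenchymal populations are the Col14a1+ matrix fibroblasts and the alveolar myofibroblasts, which deposit elastin.

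The label was checked against its markers. Summed over all mice, Col13a1, a transmembrane collagen, was found at 474 CPM (UMIs of the gene, scaled to a common total of UMIs) in these cells, against 84.6 CPM in Col14a1+ fibroblasts, the next of the 34 types. Tcf21, a transcription factor of lung mesenchyme, stood at 1132 CPM, Inmt, a methyltransferase, at 548 CPM and Npnt, which encodes nephronectin, at 1406 CPM, each the highest of the 34 types. The Inmt value pools groups whose medians were 18.7 to 168 CPM in 5 of 6 and 3672 CPM in normoxic P14 mice, and its rank within single groups was not tested. The defining markers of endothelium (Pecam1, 10.5 CPM), epithelium (Epcam, 4.14 CPM) and leukocytes (Ptprc, 5.67 CPM) were near 0. These values describe how the clusters were named and were not tested. The cluster called myofibroblasts below carries the deposited name SMC and had the highest Tgfbi of the 34 types (3406 CPM). A different cluster deposited as Myofibroblast had the highest Acta2 (15114 CPM, against 3499 CPM in the one named SMC), so that the name used here is uncertain.

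Several features of the libraries touch the results. In these cells the median number of UMIs per cell did not differ between oxygen levels at P3 and P7, but at P14 it was 4424 to 5087 in normoxic and 6614 to 9184 in hyperoxic mice (two-sided exact permutation test of 6 against 6 mice, adjusted p = 0.00974). The percent of mitochondrial UMIs at P14 was 5.42 and 5.56 (adjusted p = 0.913). Pairs of libraries shared 12 to 50 cell barcodes, and 15 barcodes occurred among these cells in more than 1 library. No pool held P14 mice together with another age, so that age and pool cannot be told apart in comparisons of P14 with P3 or P7. One pool held P3 and P7 mice and gave 2 libraries, whereas each of the other 4 pools was 1 library. All p-values measure the spread between mice, which includes the spread between pools unless a test takes the pool into account.

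The bases before the start sites of 4 inflammatory genes, picked because they held the motif named below, are shown. They are the chemokines Cxcl1 and Cxcl10, the interleukin Il6 and the NF-kB inhibitor Nfkbia. Those of Saa3 and Inmt are shown too, and all are credited to RefSeq on GRCm38.p6. Capitals mark the motif GGANTTTCC or its reverse complement GGAAANTCC, a short form of the site that NF-kB factors bind, searched on both strands in the 250 bases before each start. The stretches lie at chr7:46715701-46715926 (minus strand, Saa3), chr6:55175044-55175240 (minus, Inmt), chr5:90890995-90891240 (plus, Cxcl1), chr5:92348890-92349139 (minus, Cxcl10), chr5:30012864-30013113 (plus, Il6) and chr12:55492648-55492897 (minus, Nfkbia), each written 5′ to 3′ on the strand of its gene and ending before the first transcribed base of GENCODE vM21.
Saa3: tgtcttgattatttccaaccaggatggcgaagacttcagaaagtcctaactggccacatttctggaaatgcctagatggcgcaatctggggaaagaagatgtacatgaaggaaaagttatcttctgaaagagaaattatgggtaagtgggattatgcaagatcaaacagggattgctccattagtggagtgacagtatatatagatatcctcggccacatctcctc
Inmt: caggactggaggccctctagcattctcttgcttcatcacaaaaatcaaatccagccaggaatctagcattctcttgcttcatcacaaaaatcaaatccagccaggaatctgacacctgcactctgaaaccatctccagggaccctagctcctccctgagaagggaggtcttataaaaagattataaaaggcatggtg
Cxcl1: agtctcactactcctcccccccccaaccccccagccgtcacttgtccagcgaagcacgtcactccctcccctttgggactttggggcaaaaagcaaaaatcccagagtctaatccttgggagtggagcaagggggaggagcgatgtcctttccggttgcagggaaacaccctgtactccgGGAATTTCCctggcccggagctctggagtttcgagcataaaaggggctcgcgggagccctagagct
Cxcl10: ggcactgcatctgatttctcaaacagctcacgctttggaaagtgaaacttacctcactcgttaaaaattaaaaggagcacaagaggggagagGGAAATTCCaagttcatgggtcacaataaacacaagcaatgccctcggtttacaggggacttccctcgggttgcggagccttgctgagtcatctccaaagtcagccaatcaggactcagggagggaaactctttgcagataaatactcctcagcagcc
Il6: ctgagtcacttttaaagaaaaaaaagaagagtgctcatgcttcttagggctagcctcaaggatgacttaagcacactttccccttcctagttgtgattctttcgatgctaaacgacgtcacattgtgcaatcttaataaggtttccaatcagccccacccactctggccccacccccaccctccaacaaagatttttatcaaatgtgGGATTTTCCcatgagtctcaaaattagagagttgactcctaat
Nfkbia: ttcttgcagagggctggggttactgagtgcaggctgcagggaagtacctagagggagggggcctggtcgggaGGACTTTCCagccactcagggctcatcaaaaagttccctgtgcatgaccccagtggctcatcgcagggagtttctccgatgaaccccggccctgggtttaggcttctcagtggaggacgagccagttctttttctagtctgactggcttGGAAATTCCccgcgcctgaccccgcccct
The motif began 70 bases before the RefSeq start of Cxcl1, 158 before that of Cxcl10 and 43 before that of Il6, and Nfkbia held a pair of matches, at 178 and 29 bases. Of all promoter entries of the same length, 1.07% held it (350 of 32851), as did 1.38% of the genes tested that had an entry (114 of 8249). Of the chemokine, cytokine receptor and acute phase genes tested, 10 of the 49 with an entry (20.4%) held it. The cytokine receptor list was drawn up together with NF-kB genes, which favours such a share. Of all genes tested 16.8% rose at P14. Of the 49, 34 rose, with the motif or without it. Among them were 8 of the 10 with the motif, Cxcl1, Cxcl2 (not called without the second P14 library), Cxcl10, Il6, Csf1, Nfkbia, Tnfaip3 and Tnfaip2. For Saa3 and Inmt the search says only that these letters are not in this window, and a match is a description of sequence. Whether the motif bears on the changes at P14 was not tested.

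The share of Col13a1+ fibroblasts among all cells of a mouse was lower at P14 than at P3 in room air, and at P14 it was higher in hyperoxia than in room air. At P3 they made up 22.9, 23.8 and 25.1% (lowest, median and highest of 6 mice) in normoxia and 20.0, 25.5 and 30.5% in hyperoxia. The P3 means, 23.9% ± 0.883 and 25.0% ± 3.89 (SD, n = 6), differed by 1.09 percentage points (two-sided exact permutation test, adjusted p = 0.745). At P14 they made up 9.26, 10.8 and 14.1% in normoxia and 17.2, 18.4 and 25.6% in hyperoxia, without overlap. Here the means were 11.4% ± 2.04 and 20.1% ± 3.53, a difference of 8.72 points (exact permutation p = 0.00216, the smallest that 6 against 6 mice allow, and adjusted p = 0.0245 over 34 types and 3 ages). This was the largest increase of any of the 34 types at that age, and it was 5.59 points in the first P14 pool and 11.8 in the second. With only 3 mice against 3, a single pool cannot pass the threshold, as its exact permutation p cannot go below 0.1. The effect at P14 was larger than that at P3 by 7.63 points (100000 permutations of the oxygen labels within ages, p = 0.0234), which did not pass after adjustment over the 34 types (adjusted p = 0.105).

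At P7 the pools differed more than the oxygen levels did. In the pool shared with P3 these cells were 20.7 to 24.3% of all cells in the 6 mice of both oxygen levels, and in the other P7 pool 6.97 to 12.9%. The P7 means were 15.5% ± 6.36 and 16.6% ± 6.93 (SD, n = 6; difference 1.05 points, exact permutation test, adjusted p = 0.878). Among stromal cells alone, the P7 means were 40.1% ± 12.4 in normoxia and 53.8% ± 9.11 in hyperoxia (adjusted p = 0.156 by an exact permutation test). Within the pools the P7 differences were 6.79 points in the shared one and 20.7 in the other, where 1 hyperoxic mouse had only 19 stromal cells. With labels permuted within pools, an alternative added after the data were seen, the P7 difference passed (adjusted p = 0.036, exact permutation test). At P14 the stromal percentages were 38.0 ± 9.01 and 56.9 ± 2.79, 18.95 points apart (adjusted p = 0.0195, exact permutation test). Between P3 and P14 the share of all cells fell by 12.5 points in normoxia (adjusted p = 0.0232, exact permutation test) and was 4.88 points lower in hyperoxia (adjusted p = 0.167). A share depends on all other types, and how far the other types moved it was not tested.

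**Figure D1:**
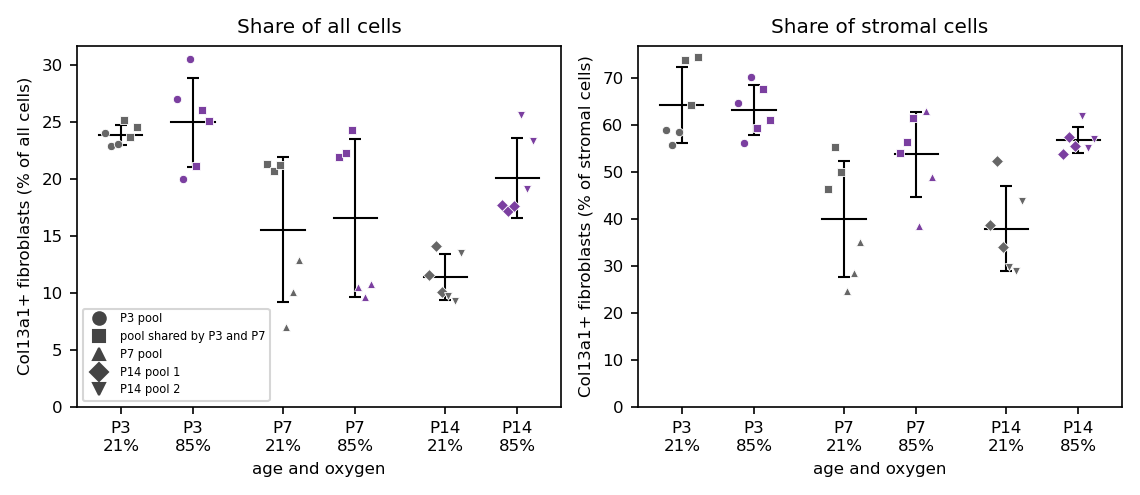
Share of Col13a1+ fibroblasts per mouse, as a percentage of all cells (left) and of stromal cells (right), by age and oxygen level. Each point is a mouse, its shape gives the pool, and lines with bars show the mean and SD of 6 mice; at P14 the hyperoxic mice lie above the normoxic ones on both scales, and at P7 the pools lie apart on the left.

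In normoxic mice, 436 of 10549 genes tested (4.13%) changed between P3 and P7, 3480 (33.0%) between P7 and P14 and 3830 (36.3%) between P3 and P14 (edgeR quasi-likelihood test, adjusted p below 0.05, and detection of the gene in 10% or more of the cells of 1 group). From P3 to P7, Nnmt, a nicotinamide methyltransferase (2.29 on the log2 scale), and the fatty acid-binding protein gene Fabp3 (2.01) rose. The chemokine Ccl11 (-2.81), Col14a1 (-2.02) and the imprinted RNA Meg3 (-1.83) fell. The haemoglobin gene Hbb-bs had a fold change of 5.00, which turned to -0.36 with a term for the pool and -1.29 without the P7 library, and the summed erythroid markers of these fibroblasts reached 7752 CPM in normoxic P7 mice against at most 376 CPM at P3. From P7 to P14, Inmt (6.25), the transcription factor Zbtb16 (5.65) and the protease inhibitor Serpina3n (5.63) rose most. Hbb-bs (-7.51, but -1.23 and not called without the P7 library), the imprinted gene Mest (-4.32) and Vcan, a proteoglycan of immature matrix (-3.03), fell most. From P3 to P14 the leading changes were 7.19 for Inmt, 4.83 for Serpina3n and 4.32 for Zbtb16, against -5.51 for Mest, -4.25 for Ccl11 and -3.35 for Acta2, the smooth muscle actin.

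Between P7 and P14 in normoxia, the lists with many members higher included those of the glucocorticoid response, of lipid storage and of the basement membrane, where 15.7% of all genes tested rose and 17.3% fell. Of 16 glucocorticoid-responsive genes 11 rose and 1 fell (median log2 fold change 1.66), with Tsc22d3 at 2.52 and Fkbp5 at 3.89. Of 20 lipid storage genes 9 rose and 0 fell (median 0.84), and of 16 basement membrane genes 11 rose and 0 fell (median 0.53). The median over all genes tested was 0.0028. These lists were chosen with earlier results of these data known, which can favour such counts. Age and pool cannot be told apart in this comparison, and these counts were not made with a P14 library left out.

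Hyperoxia changed more genes of Col13a1+ fibroblasts with each later age. At P3 89 genes changed (0.844% of those tested, 73 higher and 16 lower). The number was 595 for P7 mice (5.64%, 340 higher and 255 lower) and 3442 for P14 mice (32.6%, 1768 higher and 1674 lower). With the pool as a block, the P3 and P7 counts were 177 and 917. At P14, 356 genes were at least 2-fold higher and 285 at least 2-fold lower. The count at P14 was 1519 without the first P14 library and 2883 without the second, and 3303 with the sums of hyperoxic mice reduced at random to the depth of normoxic cells. The effect differed between P14 and P3 in 2172 genes (20.6%, 1099 with a more positive and 1073 with a more negative effect at P14), and between P14 and P7, a test added after the data were seen, in 1809 (17.1%). These counts were 802 and 512 without the first P14 library.

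At P3 the leading genes were p53 targets and Chodl, a membrane lectin. Cdkn1a, the p21 inhibitor of the cell cycle, was at 30.1 to 48.6 CPM in normoxic and 174 to 362 CPM in hyperoxic P3 mice, a log2 fold change of 2.66 ± 0.20 (SE; adjusted p = 1.33e-12). Chodl rose by 1.67 ± 0.35 (SE; adjusted p = 0.00445) and Zmat3, another p53 target, by 1.53. Rpl22l1, a ribosomal protein paralogue (-1.25), Tmem86a (-0.75) and Setd1b, a histone methyltransferase gene (-0.71), fell. With the library of P3 mice alone left out, the count at P3 was 18, and Chodl (1.06), Tmem86a (-0.47) and Setd1b (-0.62) were no longer called. At P7 acute phase genes led, with Saa3 at 6.93, Serpina3n at 4.88 and Hp at 3.98, while Fabp3 (-2.60), the aggrecanase Adamts5 (-1.51) and the semaphorin Sema6a (-1.33) fell. Without the pool shared by P3 and P7, which leaves 3 mice a group, Saa3 (6.96), Serpina3n (7.77), Hp (2.55) and Sema6a (-0.96) did not pass at P7 (adjusted p = 0.0585, 0.0521, 0.107 and 0.117, edgeR). The effects that differed most between P14 and P3 were those of Chodl (4.85), Saa3 (4.02) and Cxcl10 (3.81), more positive at P14, and Inmt (-4.61), Zbtb16 (-3.37) and Mapt (-2.87), more negative. Without the first P14 library those of Saa3 (3.13) and Zbtb16 (-1.18) were not called, nor was Zbtb16 without the P3 library (-1.55) or Saa3 without the shared pool (2.90).

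Among the 4 genes that mark these cells, Inmt and Npnt were far lower in hyperoxia at P14, and the other two differed by less than 1 on the log2 scale. Inmt (chr6:55170626-55175043), which methylates indole amines, had a lowest, median and highest value of 15.6, 18.7 and 62.3 CPM in normoxia at P3, 30.1, 46.2 and 78.4 at P7 and 2482, 3672 and 4924 at P14. In hyperoxia the values were 16.6, 38.5 and 74.6 CPM at P3, 14.3, 62.0 and 204 at P7 and 137, 168 and 661 at P14. All 6 normoxic P14 mice thus lay above all hyperoxic P14 mice, and the groups overlapped at P3 and P7. The log2 fold change at P14 was -3.83 ± 0.39 (SE; adjusted p = 1.63e-10), with -3.18 without the first P14 library and -4.48 without the second. Npnt (chr3:132881745-132950291), a ligand of integrin alpha 8, went from 853, 996 and 1186 CPM at P3 through 1608, 1722 and 1812 at P7 to 3153, 3476 and 4129 at P14 in normoxia. In hyperoxia it had 763, 849.9 and 1079 CPM at P3, 864, 1154 and 1276 at P7 and 745, 942 and 1365 at P14, so that neither later group overlapped with its normoxic counterpart. Its log2 fold changes were -0.65 ± 0.12 (SE; adjusted p = 1.82e-04) at P7 and -1.91 ± 0.12 (SE; adjusted p = 8.14e-16) at P14. How many of all genes tested lack overlap was not counted.

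Col13a1 itself (chr10:61838236-61979108) stood at 409, 472 and 512 CPM in normoxic and 317, 389 and 437 CPM in hyperoxic P14 mice, overlapping groups with a log2 fold change of -0.36 ± 0.12 (SE; adjusted p = 0.0105). That call was lost without either P14 library (adjusted p = 0.139 and 0.177). For Tcf21 (chr10:22817281-22820174) the values were 1259, 1610 and 2006 and 818, 934 and 1423 CPM, and the difference did not pass the test (-0.69 ± 0.29 (SE; adjusted p = 0.0513)). Within each P14 pool, however, the normoxic mice lay above the hyperoxic ones, at 1259 to 1360 against 818 to 899 CPM in the first and 1860 to 2006 against 968 to 1423 CPM in the second. With the pool as a block Tcf21 was called lower (-0.70, adjusted p = 2.08e-06, edgeR), as it was with P14 mice alone (-0.67, adjusted p = 0.00208), and over all alternatives the adjusted p ran from 2.08e-06 to 0.309. The marker list of the population, 20 genes, had 3 members higher and 13 lower at P14, against 16.8 and 15.9% of all genes tested (median -0.54, against -0.02 over all genes). Its summed level was 30262 to 34616 CPM in normoxic and 17491 to 21734 CPM in hyperoxic mice. Lower members included the amino acid transporter Slc7a10 (-2.34), Cxcl14 (-2.39) and Itga8, the integrin partner of nephronectin (-1.32), while the carboxylesterase Ces1d rose (0.75). Without the first P14 library 1 rose and 9 fell, and without the second 3 and 11.

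Pdgfra, Mapt, Fam13a and Cxcl14 rose in room air between P7 and P14 and were lower in hyperoxia at P14. Mapt, Fam13a and Cxcl14 were chosen as large decreases at P14, which favours a rise in the same normoxic P14 mice. The same holds for Pdgfra, taken from the study, which reports it lower in hyperoxia in these mice. From P7 to P14, Pdgfra changed by 3.57 ± 0.22 (SE; adjusted p = 1.90e-16) on the log2 scale in normoxia and 1.44 ± 0.22 (SE; adjusted p = 8.23e-06) in hyperoxia. Pdgfra (chr5:75152292-75198215), the receptor through which PDGF-A guides septation, had 20.3, 36.7 and 44.9 CPM at P7 and 204, 444 and 621 CPM at P14 in normoxia. In hyperoxia it had 14.3, 35.5 and 41.8 CPM at P7 and 66.3, 78.0 and 133 CPM at P14, below every normoxic P14 mouse. The log2 fold change at P14 was -2.25 ± 0.19 (SE; adjusted p = 1.15e-12), and -1.38 without the first P14 library and -3.02 without the second. At P3 and P7 the difference did not pass the test (adjusted p = 0.707 and 0.894, edgeR). Mapt, the microtubule-binding protein tau, was at 115, 136 and 169.5 CPM in normoxic and 15.4, 21.4 and 42.5 CPM in hyperoxic P14 mice (-2.58 ± 0.20 (SE; adjusted p = 9.58e-14)), with -2.01 without the first P14 library and -3.20 without the second. Fam13a, a gene known from lung function genetics, was at 198, 225 and 289.9 and 27.1, 31.5 and 83.5 CPM (-2.56). The chemokine Cxcl14 was at 337, 508 and 649 and 65.8, 74.1 and 181 CPM (-2.39), with -1.77 without the first P14 library and -3.10 without the second. None of these 3 overlapped between oxygen levels at P14, but how many of all genes tested lack overlap was not counted. Fabp3 fell earlier: at P3 it had 8.27, 22.5 and 38.8 CPM in normoxia and 1.88, 8.24 and 15.0 in hyperoxia, and at P7 52.6, 87.5 and 184 and 9.54, 16.2 and 18.8. By P14 it had 101, 157 and 215 and 15.5, 24.2 and 26.3 CPM (-2.93 ± 0.29 (SE; adjusted p = 6.77e-11)), with no overlap at P7 and P14, and it was not called at P3, where it was found in fewer than 10% of the cells.

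Acute phase genes rose over the course of hyperoxia, unequally between mice. Saa3 (chr7:46711998-46715700), a serum amyloid A protein made outside the liver, had 2.06, 10.6 and 89.1 CPM in normoxic and 17.7, 88.1 and 305 CPM in hyperoxic P3 mice, which overlapped. At P7 it had 0, 4.20 and 18.6 and 34.3, 369.9 and 3790 CPM, and at P14 13.2, 15.5 and 242 and 313, 2034 and 9341 CPM, without overlap at either age. The hyperoxic P14 mice thus spanned more than an order of magnitude among themselves. The log2 fold change was 6.35 ± 0.95 (SE; adjusted p = 8.53e-07) at P14, with 5.45 without the first P14 library and 7.88 without the second. Hp, the haemoglobin scavenger haptoglobin, was at 36.0, 66.0 and 75.3 CPM in normoxic and 559.8, 1227 and 3824 CPM in hyperoxic P14 mice (4.75 ± 0.57 (SE; adjusted p = 7.44e-09)), again without overlap. Lcn2, an iron-binding lipocalin, overlapped, at 14.3, 16.3 and 39.3 and 35.5, 95.5 and 1056 CPM (4.09 ± 0.77 (SE; adjusted p = 3.45e-05)). The interferon-induced chemokine Cxcl10 was at 2.19, 6.36 and 17.6 and 43.0, 150.3 and 325 CPM (4.28 ± 0.55 (SE; adjusted p = 3.99e-08)), without overlap. Saa3, Hp, Lcn2 and Cxcl10 were chosen as large increases at P14, which favours a lack of overlap there. Its share over all genes tested was not counted.

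Chodl, which encodes chondrolectin, was nearly silent in normoxic P14 mice, where 7 UMIs were counted in all and 4 of 6 mice had none. The hyperoxic P14 mice had 1329 UMIs, or 42.5, 87.4 and 215 CPM, and its fitted log2 fold change of 6.52 ± 0.58 (SE; adjusted p = 5.06e-12) was 6.34 without the second P14 library. All 7 normoxic UMIs came from the first library, so that no fold is given without it. At P3 it was at 9.09, 12.1 and 29.3 and 30.1, 45.5 and 74.2 CPM and at P7 at 1.29, 10.9 and 33.0 and 62.7, 108 and 171 CPM, without overlap at any age. The hyaluronan receptor Cd44 was at 44.1, 50.9 and 75.8 and 168, 229.8 and 269 CPM at P14 (2.00 ± 0.14 (SE; adjusted p = 7.22e-15)). Tnc, a matricellular protein of growing and injured tissue, was at 105, 133 and 219 and 548, 619 and 806 CPM (2.12 ± 0.15 (SE; adjusted p = 5.45e-15)), and Vcam1, an adhesion molecule for leukocytes, at 268, 324 and 359 and 499.9, 563 and 666 CPM (0.78 ± 0.11 (SE; adjusted p = 3.13e-07)). None of these 3 overlapped at P14, where the share of all genes tested without overlap was not counted. Anxa1, annexin A1, was at 146, 198 and 245 and 148, 215 and 296 CPM and did not pass the test (0.09 ± 0.20 (SE; adjusted p = 0.744)). Plin2, which coats lipid droplets, fell slightly, from 188, 204 and 249 to 157, 164 and 185 CPM (-0.38 ± 0.09 (SE; adjusted p = 0.00109)). Its groups did not overlap either, yet the call was lost without the first P14 library (adjusted p = 0.268).

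**Figure D2:**
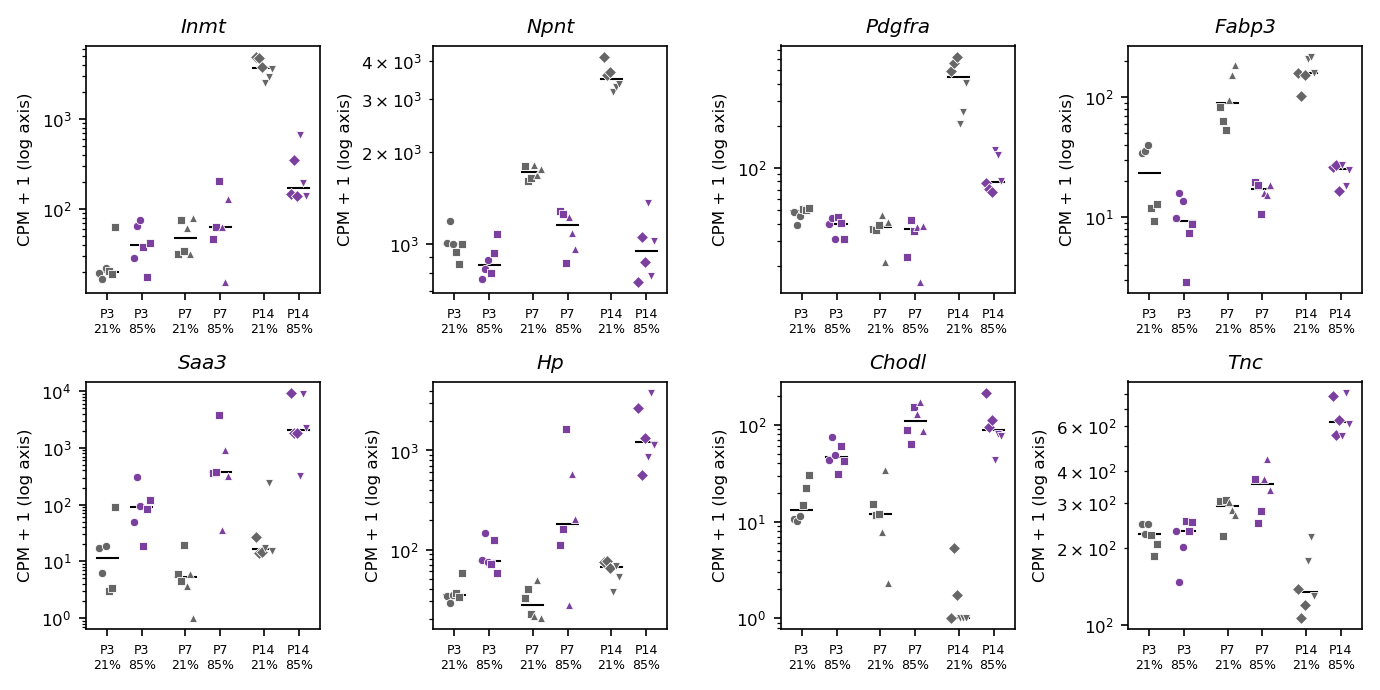
Level of 8 genes per mouse in Col13a1+ fibroblasts, in CPM + 1 on a log axis, by age and oxygen level (grey 21%, purple 85%). Each point is a mouse, its shape gives the pool as in the plot of shares, and lines are medians. Inmt, Npnt, Pdgfra and Fabp3 are lower and Saa3, Hp, Chodl and Tnc higher in every hyperoxic than in every normoxic P14 mouse. The share of all genes tested that separate in this way was not counted.

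Targets of p53, the transcription factor of the DNA damage response, included genes that rose at each of the 3 ages. This list, like all those below, was chosen with earlier results of these data known, which can favour such counts. Of the 29 genes of this list 27 were tested, of which 9 rose at P3, 12 at P7, then 15 at P14, while 1 fell at P14. The median log2 fold change was 1.46, 1.65 and 2.21. Of all genes tested, 0.692% rose at P3 and 3.22% at P7. At P14, where 16.8% of all genes tested rose and 15.9% fell, Cdkn1a was at 35.1, 43.1 and 67.9 CPM in normoxic and 625, 796 and 985 CPM in hyperoxic mice (4.07 ± 0.20 (SE; adjusted p = 4.77e-19)). The death effector Bax (1.99), Zmat3 (2.25), cyclin G1 (Ccng1, 2.21) and Mdm2, which degrades p53 (1.47), rose too, and the sestrin Sesn1 fell (-1.66). By library, without the first P14 library 15 rose and 2 fell, and without the second 14 and 1.

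Inflammatory lists had more members higher at P7 and P14 than at P3, where 0.692, 3.22 and 16.8% of all genes tested rose at P3, P7 and P14. Of 18 acute phase and complement genes tested, 4 rose at P3, 11 at P7 and 12 at P14, where none fell (median 1.22). They included the complement component C4b (3.60), the complement inhibitor Cd55 (1.43) and C3 (1.29, not called without the first P14 library). Of 19 chemokine and cytokine genes, 0 rose at P3, 5 at P7 and 11 at P14, where Cxcl14 fell (median 1.59). The P14 increases were 4.04 for Cxcl1, which attracts neutrophils, 4.01 for Lif and 3.41 for Il6, both ligands of gp130 receptors, 3.40 for the eotaxin Ccl11 and 3.04 for Cxcl12. Of 27 cytokine receptor and NF-kB genes, 0 rose at P3, 13 at P7, then 17 at P14, while 3 fell at P14 (median 0.56). The interleukin-1 receptor Il1r1 (1.75), the oncostatin M receptor Osmr (1.46) and the NF-kB inhibitors Nfkbia (1.67) and Tnfaip3 (2.53), whose promoters hold the motif shown above, rose. The receptors Il6ra (-1.998) and Il11ra1 (-0.93) fell. The leukocyte markers in these cells had no member higher at P14, and their summed level was 218 to 380 CPM in normoxic and 164 to 238 CPM in hyperoxic mice.

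Of all genes tested, 0.692, 3.22 and 16.8% rose at P3, P7 and P14, and 15.9% fell at P14. Interferon-induced and antigen presentation genes rose in 2 of 33 at P3, 11 at P7, then 20 at P14. None fell at P14 (median 0.86). Ifitm3, a restriction factor against virus entry (1.89), Bst2 (2.27), the ubiquitin-like Isg15 (3.53) and B2m, the light chain of class I molecules (0.86), were among them. By library, without the first P14 library 14 rose and 0 fell, and without the second 21 and 0. Over all genes tested these counts were 865 and 654 of 10910, and 1598 and 1285 of 10900. Of 17 adhesion receptor genes 7 rose and 2 fell, with Icam1 at 2.62 and Itga8 at -1.32. The oxidative stress list had members in both directions at P14, with 18 of 37 higher and 8 lower (median 0.32) against 4 higher and none lower at P3. The mitochondrial superoxide dismutase Sod2 (1.99), Akr1b8 (2.16) and Gpx8 (1.22) rose, and the thioredoxin inhibitor Txnip (-2.12) and Gpx3 (-0.90, and -0.57 without the first P14 library) fell. With the first P14 library left out 12 were higher and 3 lower, and without the second 15 and 5. Hypoxia and glycolysis genes went both ways, 10 of 27 up and 7 down, with Ldha at 1.08 and the angiogenic factor Vegfa at -0.91, and without the first P14 library 8 rose and 3 fell.

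**Figure D3:**
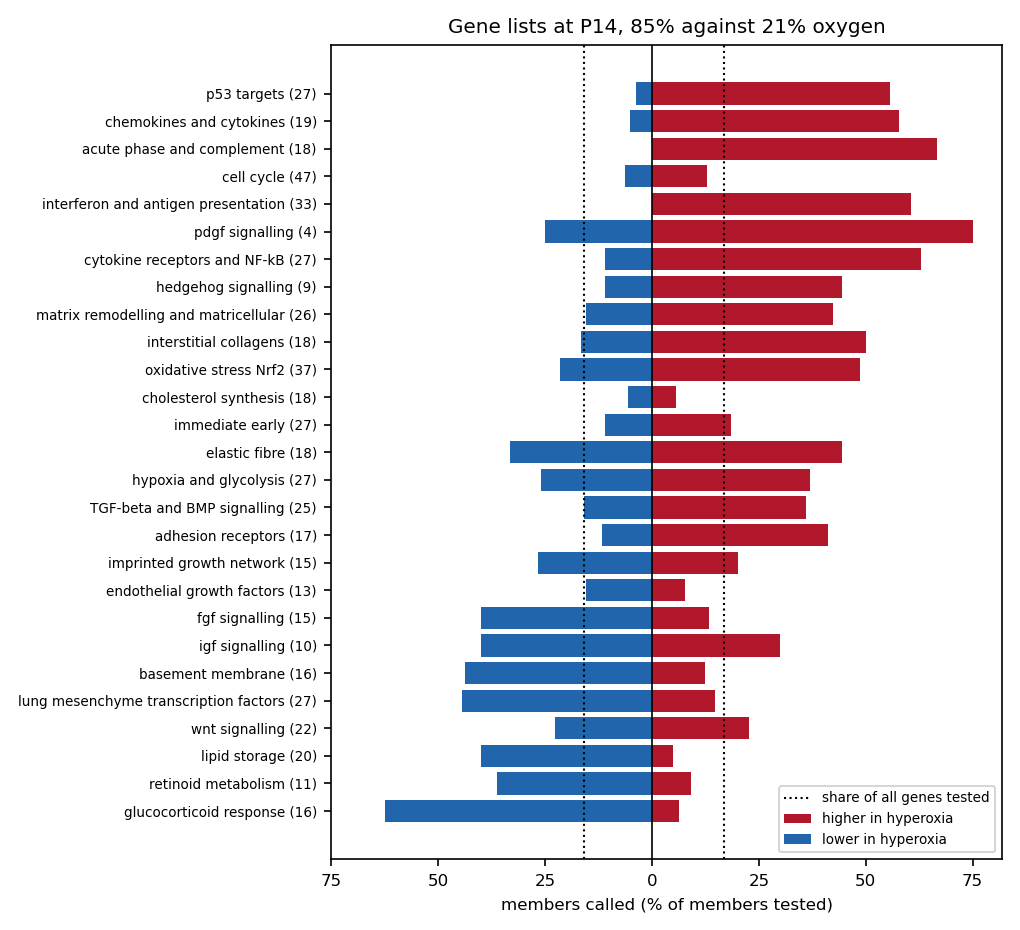
Members of 27 gene lists called higher (red, right) or lower (blue, left) in hyperoxia at P14, as a percentage of the members tested, whose number stands in brackets. Dotted lines mark the share of all genes tested, 16.8% higher and 15.9% lower. Acute phase, NF-kB, interferon, chemokine and p53 lists lie furthest past it on the right among lists of more than 10 genes, and the glucocorticoid list on the left. All lists were chosen with earlier results of these data known, which can favour shares past the lines. Without the first P14 library 2 of the 16 glucocorticoid genes were lower.

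Matrix lists had members in both directions at P14, where 16.8% of all genes tested rose and 15.9% fell, or 865 and 654 of 10910 without the first P14 library. Of 26 remodelling and matricellular genes 11 rose and 4 fell (median 0.45). Mmp3, a protease (3.26, with 3.60 without the first P14 library and 2.66 without the second), rose. Vcan (2.88, with 2.18 without the first P14 library and 3.53 without the second), the protease inhibitor Timp1 (4.04) and Mmp2 (1.04) rose, and the protease Adamts9 fell (-0.92). In this list 11 rose and 2 fell without the first P14 library. Of 18 interstitial collagen genes 9 rose and 3 fell (median 0.32), with Col12a1 at 1.99, Col5a2 at 1.09, the collagen hydroxylase Plod1 at -0.92 and Col6a2 at -0.78. Without the first P14 library 5 rose and 2 fell, and without the second 8 and 3. Col1a1, at 1608 to 2397 CPM in normoxic and 1711 to 2222 CPM in hyperoxic mice, did not pass the test (-0.08 ± 0.10 (SE; adjusted p = 0.576)). Of 18 elastic fibre genes 8 rose and 6 fell (median 0.22). Fbn2, the fibrillin of the fetal lung (3.42), the latent TGF-beta binding protein Ltbp2 (1.86) and Fbln1 (1.66) rose. Eln, which encodes elastin, was at 5786, 9278 and 15256 CPM in normoxic and 2480, 2870 and 6536 CPM in hyperoxic mice (-1.57 ± 0.26 (SE; adjusted p = 5.61e-06)), but without the first P14 library the value was -0.63 (adjusted p = 0.190) and without the second -2.41. By library, without the first P14 library 7 rose and 0 fell, and without the second 7 and 6. Of 16 basement membrane genes 2 rose and 7 fell (median -0.23), led by Npnt and by the heparan sulphate proteoglycan Hspg2 (-0.68). Without the first P14 library 4 rose and 3 fell, and without the second 1 and 5.

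The glucocorticoid response list had many members that rose with age in room air. In hyperoxia at P14, compared with the same normoxic mice, 1 of its 16 genes was higher and 10 were lower (median -0.95). Over all genes tested 16.8% were higher and 15.9% lower. At P7 3 of the list were higher and 1 lower (median 0.63), against 340 higher and 255 lower of the 10549 genes tested. Tsc22d3, the leucine zipper protein GILZ, was at 270.2, 386 and 623 CPM in normoxic and 69.2, 88.0 and 143 CPM in hyperoxic P14 mice (-2.05 ± 0.21 (SE; adjusted p = 3.28e-10)), with -1.35 without the first P14 library and -2.78 without the second. The cell cycle inhibitor Cdkn1c (-1.52), Fkbp5, a chaperone of the receptor (-1.52), and Zbtb16 (-1.68) fell, but without the first P14 library Fkbp5 was at 0.12 and Zbtb16 at 0.51 and neither was called, and Lcn2, also an acute phase gene, was the member that rose. Without the first P14 library 1 rose and 2 fell, and without the second 1 and 10. Over the whole table, without the first library the genes that fell numbered 654 of 10910, against 1674 of 10549 with it. Of 20 lipid storage genes 1 rose and 8 fell (median -0.42). The lipase inhibitor G0s2 (-1.58), the triglyceride lipase Pnpla2 (-1.46) and Lipe (-1.05) fell, and lipoprotein lipase, Lpl, rose (1.95). In this list, without the first P14 library 1 rose and 3 fell, and without the second 1 and 8. Of 11 retinoid genes 1 rose, Adh1 (0.77), and 4 fell, among them Crabp1, a retinoic acid-binding protein (-5.14).

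**Figure D4:**
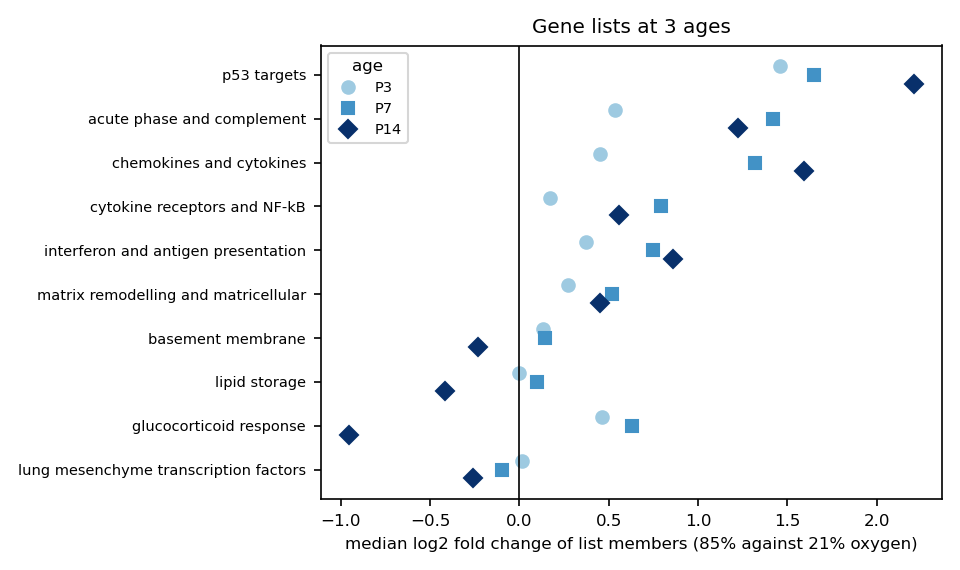
Median log2 fold change in hyperoxia of the tested members of 10 gene lists at P3, P7 and P14. The p53 median rises from 1.46 through 1.65 to 2.21 and the glucocorticoid median goes from 0.63 at P7 to -0.95 at P14. Without the first P14 library 2 of the 16 glucocorticoid genes were called lower at P14.

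Growth factor pathways had members in both directions at P14, where 16.8% of all genes tested rose and 15.9% fell. Among 10 insulin-like growth factor genes 3 rose and 4 fell. Igf1, a growth factor that lung mesenchyme secretes, was at 76.6, 89.0 and 108 CPM in normoxic and 519, 752 and 938 CPM in hyperoxic mice (2.98 ± 0.13 (SE; adjusted p = 3.18e-20)). The binding protein Igfbp6 fell (-3.04, with -2.23 without the first P14 library and -3.59 without the second). Of 15 FGF genes 2 rose and 6 fell, with the receptors Fgfr3 (-1.08) and Fgfr4 (-0.90) and the ligand Fgf10 (-0.43, not called without the second P14 library) lower, and without the first P14 library 0 rose and 3 fell, against 1 and 3 without the second. Of 22 Wnt genes 5 rose and 5 fell, with the antagonist Sfrp1 at 2.74, the ligand Wnt5a at 0.96 and Notum, which inactivates Wnt ligands, at -1.53 (-0.98 without the first P14 library), and without the first P14 library 4 rose and 2 fell. Of 25 TGF-beta and BMP genes 9 rose and 4 fell, with Fstl1 at 0.50, the co-receptor Eng at 0.95 and the ligand Tgfb2 at -1.16. Of these, 4 rose and 3 fell without the first P14 library, and 6 and 3 without the second. Of 9 hedgehog genes 4 rose, including the hedgehog-binding protein Hhip (2.44) and the receptor Ptch1 (0.54), and 1 fell, Gas1 (-0.75), a call lost without a P14 library. Of 4 PDGF genes Pdgfrl (1.26), Pdgfrb (0.81) and Pdgfa (0.37) rose and Pdgfra (-2.25) fell, the calls of Pdgfrb and Pdgfa being lost when a P14 library was left out. Of 13 endothelial growth factor genes 1 rose, Kitl (0.55), and 2 fell, among them Vegfa.

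Of 27 transcription factors of lung mesenchyme 4 rose and 12 fell at P14 (median -0.26). Runx1 rose (2.33), and Klf15, a glucocorticoid-induced factor (-2.01, with -1.37 without the first P14 library and -2.58 without the second), Hoxb5 (-1.33) and Tbx2 (-0.85) fell. In this list, without the first P14 library 1 rose and 5 fell, and without the second 4 and 8. Of 47 cell cycle genes 6 rose and 3 fell, against 16.8 and 15.9% of all genes tested, with cyclins Ccnd1 at 3.71 and Ccnd2 at 2.03 and inhibitors Cdkn1c at -1.52 and Cdkn1b at -1.07. The proliferation marker Mki67 had a UMI in a mean of 0.184% of the thinned normoxic and 0.766% of the hyperoxic P14 cells, which did not pass the exact permutation test (adjusted p = 0.0974). Of 15 imprinted genes 3 rose and 4 fell, with Nnat at 3.00 and Peg3 at -1.58 (-1.02 without the first P14 library). Of 27 immediate early genes 5 rose and 3 fell, with 3 and 1 without the first P14 library and 1 and 4 without the second. Of 18 cholesterol synthesis genes 1 rose and 1 fell. When either P14 library was left out, the counts of the retinoid, insulin-like growth factor, hedgehog, endothelial growth factor, imprinted and cholesterol lists moved by at most 1 gene.

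Markers of neighbouring mesenchymal cells were examined in the same way, against 16.8% of all genes tested higher and 15.9% lower. Of 13 Col14a1+ fibroblast markers 6 rose, among them Col14a1 (2.18) and Fbln1, and 2 fell, Dpep1 (-2.33) and Dcn (-0.91). The call of Dcn was lost when either P14 library was left out. The summed level of the list was 2464 to 3203 CPM in normoxic and 3005 to 3447 CPM in hyperoxic P14 mice. Of 9 myofibroblast markers 3 rose, including Acta2 (1.75), and 3 fell, including Pdgfra and Aspn (-1.93, with -1.42 without the first P14 library and -2.54 without the second), at 1537 to 1889 and 1614 to 2152 CPM in sum. Of 6 pericyte markers tested 3 rose, the guanylate cyclase subunits Gucy1a1 (1.75) and Gucy1b1 (1.37) and Pdgfrb, and the summed level of all 10 was 117 to 165 CPM against 326 to 391 CPM. The part of such cells in the results was not tested. No member was higher among 11 epithelial, 9 endothelial, 8 immune, 4 erythroid, 4 smooth muscle or 4 mesothelial markers tested, and 3, 1, 1, 0, 1 and 1 of them were lower. Epithelial markers summed to 1790 to 3235 and 1243 to 3267 CPM at P14, of which most was Sftpc, a transcript of type 2 cells for which these fibroblasts ranked 12 of the 34 types.

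Fewer genes changed from P7 to P14 in hyperoxic than in normoxic mice, in comparisons that share no mice. In hyperoxia 1587 genes (15.0%) changed over this interval, against 3480 in normoxia. Of the 1655 genes that rose in normoxia 410 also rose in hyperoxia, which is 24.8% of the normoxic and 47.1% of the 871 hyperoxic ones. Of the 1825 that fell, 385 fell in both, 21.1% of the normoxic and 53.8% of the 716 hyperoxic ones. Over all genes tested, 8.26% rose and 6.79% fell in hyperoxia. By the test of the difference itself, 904 of all genes (8.57%) had a more positive and 905 (8.58%) a more negative change in hyperoxia. In this test 0 of the 16 glucocorticoid genes had a more positive and 10 a more negative change in hyperoxia, but the list had been singled out for its rise in the same normoxic mice, which favours this direction. Inmt, for example, changed by 6.25 ± 0.45 (SE; adjusted p = 3.25e-14) in normoxia and 1.44 ± 0.39 (SE; adjusted p = 0.00658) in hyperoxia. From P3 to P7, 332 genes (3.15%) changed in hyperoxia, and from P3 to P14 2862 (27.1%).

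Since hyperoxic P14 cells were deeper, the share of cells in which a gene was detected was compared at 1000 randomly drawn UMIs in each cell, which left out 103 normoxic and 95 hyperoxic P14 cells. Inmt was found in a mean of 88.1% of normoxic and 17.3% of hyperoxic cells at P14 (adjusted p = 0.00802, two-sided exact permutation test, the same for every share of this paragraph unless given). Unthinned means were 93.6 and 40.4%. The share went from 92.1 to 54.5% for Npnt, 33.4 to 8.84% for Cxcl14 and 31.8 to 8.47% for Pdgfra (adjusted p = 0.0144). Saa3 went from 2.17 to 28.9%, with hyperoxic mice between 7.45 and 53.9%, and Hp from 5.41 to 37.5%. In general capillary endothelial cells of P14, which served as a background for free RNA, Saa3 was found in 1.64% of normoxic and 0.903% of hyperoxic cells and Hp in 2.38 and 2.03%, at median depths of 2038 and 4445 UMIs before thinning, against 4841 and 7431 UMIs in the fibroblasts. Lcn2 was found in 2.38 and 2.71% and Cxcl10 in 0.423 and 1.35% of these cells. Shares of endothelial cells are over all cells of a group, whereas those of fibroblasts are means over mice. Whether endothelial cells make these transcripts themselves was not tested. The normoxic shares of Saa3, Lcn2 and Cxcl10 in fibroblasts were close to that background. Chodl went from 0.0602 to 8.89%, Cxcl10 from 0.471 to 5.78%, Tnc from 12.9 to 39.3% and Cd44 from 4.94 to 19.3%. Lcn2 (2.25 to 9.74%, adjusted p = 0.0593), Tcf21 (68.4 to 54.6%, 0.0625) and Col13a1 (36.3 to 32.2%, 0.286) did not pass the test. With labels permuted within pools the share of Tcf21 did (adjusted p = 0.015, exact permutation test). In the 6 hyperoxic P14 mice, cells with a Saa3 UMI held an Inmt UMI less often than cells without by 5.13 percentage points on average, in 5 of 6 mice, which did not pass the exact sign-flip test (p = 0.125, where the smallest possible is 0.0313).

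The response at P14 was compared with that of Col14a1+ fibroblasts and of myofibroblasts of the same mice. The effect of hyperoxia differed from that in Col14a1+ fibroblasts in 827 of 8646 genes (9.57%), with 436 more positive and 391 more negative in Col13a1+ fibroblasts, and from that in myofibroblasts in 2593 of 9896 (26.2%, 1219 and 1374). Against Col14a1+ fibroblasts, Mmp3 had the largest positive difference on the log2 scale, 4.47 ± 0.33 (SE; adjusted p = 1.93e-12), since it rose by 3.26 here and fell there by 1.22. Chodl (3.98) and the heparan sulphatase Sulf2 (3.70) followed. Of 20 chemokine and cytokine genes tested in both types, 7 had a more positive effect here and 1 a more negative one, against 5.04 and 4.52% of all genes tested. Of those chosen after their values were seen, the difference was 3.31 ± 0.33 (SE; adjusted p = 1.62e-09) for Cxcl1, 2.75 ± 0.30 (SE; adjusted p = 8.84e-09) for Il6 and 3.01 ± 0.32 (SE; adjusted p = 5.88e-09) for Ccl11. The effects on Cdkn1a (2.57) and Hp (3.56) were also more positive here. For Saa3 the difference was 1.26 ± 1.19 (SE; adjusted p = 0.621) and did not pass the test. Stmn1, a microtubule regulator, had the largest negative difference, -3.71 ± 0.29 (SE; adjusted p = 8.43e-12), followed by Mapt (-3.10) and Fabp3 (-2.62, and -2.25 with thinned hyperoxic sums, where it was not called). Inmt fell more than in Col14a1+ fibroblasts (-2.50 ± 0.20 (SE; adjusted p = 1.22e-11)), and so did Pdgfra (-1.29 ± 0.20 (SE; adjusted p = 1.16e-05)).

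Against myofibroblasts, Chodl had the largest positive difference, 6.19 ± 2.02 (SE; adjusted p = 0.0246), followed by the imprinted gene Nnat (5.35) and Col14a1 (4.32). The largest negative ones were those of decorin, Dcn (-6.36 ± 0.31 (SE; adjusted p = 3.28e-14)), Fam198b (-5.04) and Cxcl14 (-4.77), each of which rose in myofibroblasts, by 5.69, 3.92 and 2.33. Saa3 rose more here than in myofibroblasts (3.75 ± 0.79 (SE; adjusted p = 6.32e-04)), and Hp did too (3.82 ± 0.49 (SE; adjusted p = 1.07e-06)). For Cdkn1a the difference was 0.46 ± 0.17 (SE; adjusted p = 0.0415). The decreases of Pdgfra (-0.13 ± 0.29 (SE; adjusted p = 0.788)) and Eln (0.26 ± 0.16 (SE; adjusted p = 0.225)) did not differ detectably between these types.

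**Figure D5:**
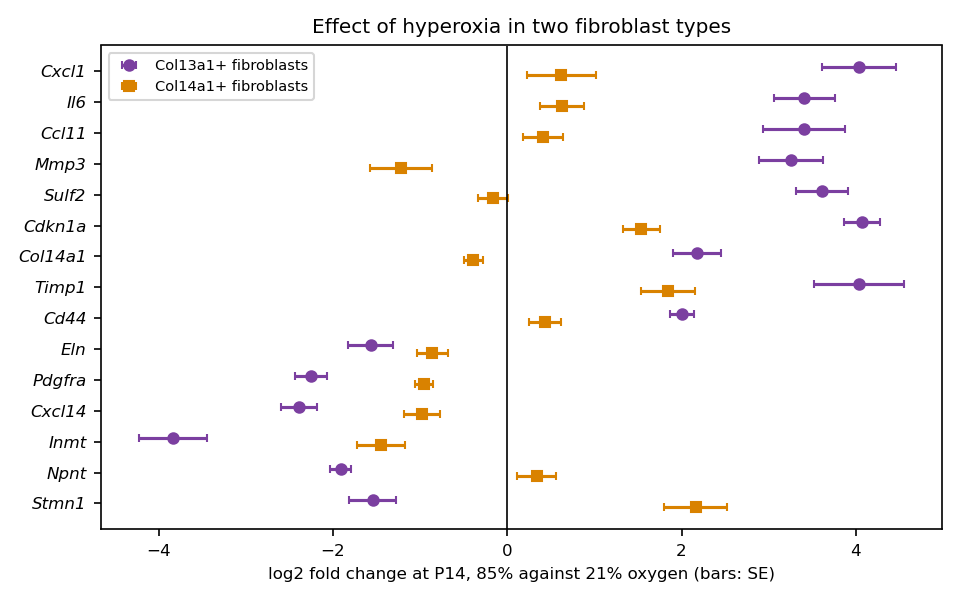
Log2 fold change at P14, 85% against 21% oxygen, with its SE, of 15 genes in Col13a1+ fibroblasts (circles, from the fit over all groups) and Col14a1+ fibroblasts (squares, P14 mice). Mmp3, Col14a1, Npnt and Stmn1 lie on opposite sides of 0 in the 2 types.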

How the data were processed

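The lungs of 36 mice were profiled by single-cell RNA sequencing. The authors deposited UMI counts per gene and cell, not normalized, made with Cell Ranger 3.0.2 on mm10 and demultiplexed by MULTI-seq barcode, after removal of doublets by barcode and of low-quality cells, together with a cell type and the percent of mitochondrial UMIs of each cell, which the authors computed before filtering. Of the Col13a1+ fibroblasts, 26 had more than 20% mitochondrial UMIs, the stated limit, and were kept. Small clusters with markers of a foreign cell type, taken for doublets missed by the barcodes, had also been removed by the authors, and no doublet caller was run here. Reads of close paralogues (Saa3, Serpina3n, Ifitm and haemoglobin genes) can be lost or exchanged in the authors' counting, so that their levels are uncertain.

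UMI counts of these cells were summed per mouse (pool and sample barcode), with at least 10 cells in each mouse, and fitted over all 6 groups of age and oxygen with edgeR 4.0.16 in R 4.3.3 (TMM, whose factors were 0.909 to 1.16, filterByExpr, glmQLFit and glmQLFTest). The p-values were adjusted by Benjamini-Hochberg over the 10549 genes tested. Changed genes are those with an adjusted p below 0.05 that were detected in 10% or more of the cells of 1 of the groups compared. Differences between types were fitted over P14 mice with the mouse as a block. Shares were compared by two-sided exact permutation tests, and tables were made in Python 3.11.15. Coordinates are GENCODE vM21 on GRCm38, the build of the files, and 16 of 19 genes with values per mouse had a RefSeq promoter entry.

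The pools are batches shared by both oxygen levels. Within a pool, the deviations of normoxic and hyperoxic sums from their group means correlated at 0.489 in P3, 0.292 in P7 and 0.137 in P14 mice, and values with the pool as a block stand beside the results whose calls it changed, or in the closing section for shares of cells not described. The members and the 37 gene lists were chosen with earlier results of these data known. Values per mouse are given for the markers, the genes the study names for these cells and the 5 largest changes in each direction at P14 whose average log2 CPM was 5 or more. In other comparisons the 3 largest changes in each direction are named, and in each list up to 3 changed members in each direction with the smallest p. Further list members, and Cxcl1, Il6, Ccl11, Cdkn1a, Hp, Saa3, Pdgfra, Inmt and Eln in the comparisons of types, were chosen after their values were seen. The alternatives were DESeq2 1.42.0, fitting every gene with a count, the pool as a block, at least 50 cells in each mouse, leaving out the mouse with fewest cells, equal numbers of cells, thinned hyperoxic P14 sums, no criterion on detection, only mice of the age, and removal of each library or of the shared pool. For shares they were stromal percentages, permutation within pools and edgeR on cell numbers, and for cells with a UMI 500, 2000 or no thinning. The scripts were tested on simulated data.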

Additional observations from a re-analysis of the deposited data

Results flagged for a closer look

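In groups of 6 mice, 8 values lay far from the other 5, among 132 groups examined, of which chance flags about 1 in 20. The groups covered the genes reported per mouse, the share of all cells, the median UMIs and the median mitochondrial percent. All 8 values were of genes. They were Inmt at 62.3 CPM and Hp at 57.3 CPM, both in normoxic P3 mouse 6, Pdgfra at 20.3 CPM in normoxic P7 mouse 5 and Fam13a at 0 CPM in hyperoxic P7 mouse 5, which had 12 of these cells. At P14 they were Plin2 at 249 CPM in normoxic mouse 1, Saa3 at 242 CPM in normoxic mouse 5, Chodl at 4.38 CPM in normoxic mouse 2 and Fam13a at 83.5 CPM in hyperoxic mouse 4.

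The effect of hyperoxia at P14 differed from that at P3 in 16 of the 19 genes reported per mouse, by the interaction test of edgeR with adjustment over all genes tested. Over all genes tested this share was 20.6% (2172 of 10549), and 10 of the 19 genes were chosen for the largest changes at P14, which favours such a difference. Pdgfra, Cd44, Vcam1 and Tnc were taken from the study, which reports that hyperoxia changed them in the same mice, and this favours it too. The differences, P14 minus P3 on the log2 scale, were positive for Chodl (4.85), Saa3 (4.02), Cxcl10 (3.81), Hp (3.41), Tnc (2.10), Cd44 (1.90) and Vcam1 (0.42). They were negative for Inmt (-4.61), Mapt (-2.87), Fam13a (-2.82), Cxcl14 (-2.10), Pdgfra (-1.96), Npnt (-1.77), Fabp3 (-1.42), Col13a1 (-0.53) and Plin2 (-0.44). Those of Tcf21, Anxa1 and Lcn2 did not pass the test.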

How the results depend on the processing

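Of 159 fold changes of named genes at P14, 158 kept their direction and their side of the threshold with DESeq2 and 158 with thinned hyperoxic sums. With equal numbers of cells, 9 were no longer called, and Anxa1 (-0.036) and Pdgfa (-0.031) changed sign. Without the first P14 library 32 were no longer called, and without the second 16. Of the named fold changes in other comparisons, 5 lost their call without the P3 library, 5 without the pool shared by P3 and P7, 5 with equal numbers of cells, 2 without the P7 library and 2 without the first P14 library. Over these, Meox2 ranged from -0.19 to 0.93 and Anxa1 from -0.15 to 0.28. From P3 to P7 in normoxia, Hbb-bs turned to -0.36 with the pool as a block and ranged from -1.29 without the P7 library to 6.22 without that of P3. The share of cells with a Col13a1 UMI at P14 was 5.53 points higher in hyperoxia without thinning.

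With the pool as a block, 177 genes changed at P3 and 917 at P7, and the counts at P14, for the effect at P14 against P3 and P7 and from P3 to P7 moved by less than 1.5 times. The block was not fitted for changes from P3 or P7 to P14, whose pools differ, or between cell types. It gained the call of Tcf21 at P14, and permuting labels within pools gained those of the shares of cells with Tcf21 at P14, Fabp3 at P3 and P7 and Cxcl10 at P7 (adjusted p = 0.015, 0.015, 0.0274 and 0.0485, exact permutation tests). With equal numbers of cells per mouse the counts of changed genes were 40 at P3, 307 at P7, 1145 and 932 for the effect at P14 against P3 and against P7, 269 and 89 from P3 to P7 in normoxia and hyperoxia, 828 from P7 to P14 and 1635 from P3 to P14 in hyperoxia. Without the pool shared by P3 and P7 they were 160 at P7, 1301 and 580 for the effect at P14 against P3 and P7, and 755 from P7 to P14 in hyperoxia. These settings have fewer cells or mice. Without the criterion on detection 137 genes changed at P3 and 4319 at P14. Among stromal cells, the difference at P7, 13.8 points, passed with labels permuted within pools, and the difference of the share at P3 was -1.02 points, hyperoxia minus normoxia. From P3 to P7 in normoxia the share changed by -8.36 points (exact permutation test, adjusted p = 0.0232). Among stromal cells it changed by -24.3 points (exact permutation test, adjusted p = 0.0195). By edgeR on cell numbers this fall among all cells, -0.62 on the log2 scale, did not pass (adjusted p = 0.0641).

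With each library left out in turn, the counts were 18 to 96 at P3, 414 to 636 at P7 and 1519 to 3597 at P14, 802 to 2324 for the effect at P14 against P3 and 512 to 1936 against P7. In normoxia they were 217 to 658 from P3 to P7, 2097 to 3548 from P7 to P14 and 2679 to 3906 from P3 to P14, and in hyperoxia 165 to 354, 1118 to 1811 and 2131 to 3027. The difference of the share in hyperoxia was -0.37 to 1.20 points at P3, 1.01 to 1.77 at P7 and 5.59 to 11.8 at P14. Between ages it was -8.93 to -2.81 from P3 to P7, -9.69 to -3.61 from P7 to P14 and -13.1 to -12.0 from P3 to P14 in normoxia, and -8.84 to -2.13, -2.75 to 6.11 and -7.47 to -2.29 in hyperoxia.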
